A study of Mus musculus with 5 samples.

Results

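Luminal-derived basal cells (LdBC) were set against ordinary basal cells of the mouse mammary gland across all named genes of the deposited table. The contrast was drawn between 4 of the 5 libraries of the series, and the fit and the filter on low values used all 5. Of 12293 genes with a usable name, 10626 had a mean of at least 1 FPKM (fragments scaled by transcript length and library size) over the 5 libraries and were tested. In 5219 of these both LdBC libraries lay on one side of both Basal libraries, and those genes are described below. All cells came from adult virgin mice that were ovariectomized and given hormone pellets for 14 days, and each library held about 50 sorted Lin-, CD24+ cells. LdBC were CD29hi and GFP+ (2 libraries). Basal cells were CD29hi and TdTomato+ (2 libraries). Luminal cells, CD29low and GFP+ (1 library), entered that filter and the fit, where they add to the estimate of the trend, and their values are otherwise given for orientation. The hormones in the pellets and the promoter that drove either fluorescent label are not given in the sources used here. Whether the libraries of a group came from separate animals is not stated, so p-values reflect only how far these libraries lie apart, and that spread may be technical.

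The mammary duct is a bilayer. Luminal cells face the lumen, where they carry tight junctions, microvilli, mucins and ion channels and make the secretion. Basal cells sit on the basement membrane, contract, and deposit matrix and growth factors towards the stroma. Both faces of the bilayer therefore have gene programmes that go beyond keratins, actin and milk proteins.

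The sorted groups were checked on 10 luminal and 10 basal markers. Summed over the luminal list, LdBC libraries held 28662 and 25434 FPKM, Basal libraries 1080 and 846, and the luminal library 23984. The basal list summed to 1702 and 3000 FPKM in LdBC libraries, 13643 and 11664 in Basal libraries, and 3.51 in the luminal library. Of the 4 markers that came with the definition of the comparison, Krt18 had 14101 and 12798 FPKM in LdBC libraries against 194 and 172 in Basal libraries, and Cldn3 had 766 and 647 against 8.86 and 0. Acta2 had 349 and 820 FPKM in LdBC libraries against 3941 and 3800 in Basal libraries, and Krt5 had 29.4 and 20.0 against 206 and 201. LdBC libraries thus held a luminal marker sum near that of the luminal library, most of it Krt18 and Krt8. Single markers departed from that library in both directions. Cd14 had 1106 and 896 FPKM in LdBC libraries against 93.3 in the luminal library, and Prlr had 7.41 and 68.6 against 743. LdBC libraries also kept basal markers that the luminal library lacked, at a lower level than Basal libraries. Whether single cells carried both sets, or a sorted pool held cells of both kinds, cannot be told apart in pools of about 50 cells, and neither can fewer cells of a type and less RNA per cell.

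Markers of other cells were low but not even. Of the fibroblast list, 7 genes were in the table, and their sum was 29.5 and 67.2 FPKM in LdBC libraries against 295 and 276 in Basal libraries, nearly all of it Dcn. Of these 7 genes, 5 and 4 were listed at 0 in the LdBC libraries and 0 and 1 in the Basal libraries, and the collagen genes Col1a2 and Col3a1 reached at most 2.43 FPKM. The 8 endothelial markers summed to 5.75 and 7.33 FPKM in LdBC libraries against 188 and 7.64 in Basal libraries, and the 6 pericyte markers to 6.46 and 15.9 against 32.1 and 21.8. Fabp4, the only adipocyte marker in the table, had 0 and 9.97 FPKM in LdBC libraries against 473 and 0 in Basal libraries. Endothelial and adipocyte markers thus stood out in Basal replicate 1 alone. The 5 immune markers summed to 25.5 and 54.1 FPKM in LdBC libraries against 141 and 170 in Basal libraries, most of it the class II chain Cd74, and the 5 Schwann cell markers to 29.1 and 87.7 against 103 and 84.1. The 2 erythroid markers summed to 1.02 and 27.5 FPKM in LdBC libraries against 0.708 and 3.91 in Basal libraries. The part of these cells in the differences below was not tested.

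Detection differed between the LdBC libraries. Of the 12293 genes, 9201 and 10627 were above 0 in LdBC replicates 1 and 2, against 10979 and 10834 in the Basal libraries. The median absolute difference between replicates was 0.78 for LdBC and 0.44 for Basal on the log2(FPKM + 1) scale. Among tested genes, 680 were listed at 0 in LdBC replicate 1 with at least 5 FPKM in replicate 2, and 210 the other way round. A gene listed at 0 in a library of about 50 cells is not shown to be absent.

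Over all genes, 1 gene passed. Limma with Benjamini-Hochberg adjustment called Krt18 (log2 difference 6.19, SE 0.14, adjusted p = 0.0435), which is 0.00941% of the 10626 tested genes, and the next lowest adjusted p was 0.123. Under 9 of 13 alternative settings Krt18 no longer passed in limma (adjusted p between 0.0527 and 0.157, and 0.0749 without the luminal library), with a difference between 5.80 and 6.28. At an unadjusted p under 0.05 there were 1370 genes higher and 757 lower in LdBC. None of the other genes named below passed, so their values stand as measurements without a call. Every difference is one of log2(FPKM + 1) values, a scale that compresses low genes and so understates their fold.

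Separation of the groups was counted over all tested genes. With 2 libraries in each group, some genes separate in either direction by random order alone, and that share was not taken off. The LdBC pair lay wholly above the Basal pair in 3246 genes (30.5%) and wholly below it in 1973 (18.6%). A stricter group had a gap of at least 1 on the log2(FPKM + 1) scale between the nearest libraries of the 2 groups. It held 976 genes above (9.19%) and 739 below (6.95%). A gap of at least 2 was present in 319 genes above and 243 below, and a gap of at least 3 in 143 above and 55 below. The balance of directions depended on scaling: of the separated genes 62.2% were higher in LdBC as deposited, 43.7% after median-of-ratios scaling and 48.9% after quantile normalization. Of the genes with a gap of at least 1, 56.9% were higher as deposited, 40.0% after median-of-ratios scaling and 47.4% after quantile normalization. All 976 higher and all 739 lower genes stayed separated in the same direction under median-of-ratios scaling. A gap of at least 1 was kept by 666 and 739 of them. Only the 666 could have differed. The log2 scaling factors were 0.03 (LdBC replicate 1), 0.12 (LdBC replicate 2), -0.28 (Basal replicate 1) and -0.35 (Basal replicate 2). Scaling thus lowered LdBC against Basal values by less than 1. A gap of at least 1 cannot close under such a shift, and gaps on the lower side can only widen. The median difference over all tested genes was 0.20 as deposited, -0.10 after median-of-ratios scaling and 0.01 after quantile normalization, and the medians of gene groups below are to be read against those values. Counts of separated members in gene groups below are likewise to be read against 30.5% above and 18.6% below. Those with a gap of at least 1 are to be read against 9.19% and 6.95%. With shares of that size, a gene group or family with members on both sides does not differ in that from all genes. Where leaving out 1 library moved the median of a gene group by over 1.5 times, the value without it is given.

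**Figure D1:**
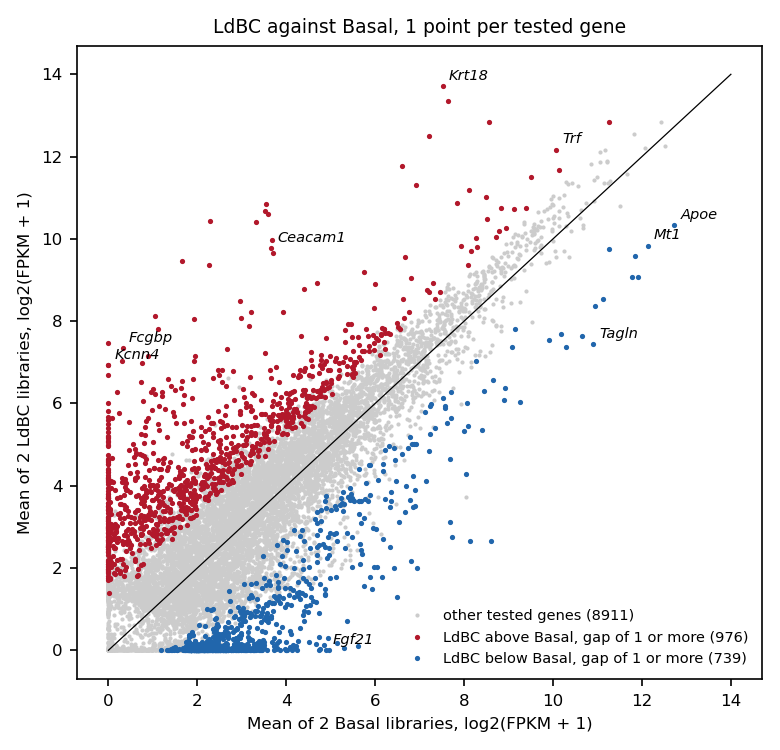
Mean log2(FPKM + 1) of the 2 LdBC libraries (vertical axis) against that of the 2 Basal libraries (horizontal axis), 1 point per tested gene, with the line of equal values. Coloured points are the 976 genes above and 739 genes below with a gap of at least 1 between the groups, and many of the lower ones lie on the floor of the plot because they were listed at 0 in LdBC.

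The 2 sides of the comparison differed in kind. Of the 976 higher genes, 313 had at least 5 FPKM in all 4 libraries and 112 read 0 in both Basal libraries. Of the 739 lower genes, 100 had at least 5 FPKM in all 4 libraries and 189 read 0 in both LdBC libraries. Among the 739, 57.1% were listed at 0 in LdBC replicate 1 and 29.8% in LdBC replicate 2, where 17.9% and 7.77% of all tested genes were. Among the 976, 19% and 19.9% were listed at 0 in Basal replicates 1 and 2, where 7.47% and 8.36% of all tested genes were. The part of the smaller number of detected genes in LdBC replicate 1 in these counts was not tested.

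Several of the widest gaps on the higher side belonged to genes of the apical surface. Fcgbp (chromosome 7, 28071236 to 28120864, build GRCm38.p6), a mucus-associated protein that binds immunoglobulin, had 163 and 162 FPKM in LdBC libraries, against 0.567 and 0 in Basal libraries. Kcnn4 (chromosome 7, 24369826 to 24385212), a potassium channel opened by calcium, had 101 and 144 FPKM in LdBC libraries and read 0 in both Basal libraries. Atp6v1b1 (chromosome 6, 83743017 to 83758855), the subunit of the vacuolar proton pump known from acid-secreting epithelia, had 406 and 189 FPKM in LdBC libraries, against 0.968 and 1.15 in Basal libraries. In these 3 genes both LdBC libraries were far above both Basal libraries and also above the luminal library, which had 31.3, 13.3 and 15.5 FPKM. Ceacam1 (chromosome 7, 25461702 to 25477647), an adhesion molecule of epithelial apical membranes with a close paralog, had 984 and 786 FPKM in LdBC libraries, against 10.6 and 12.9 in Basal libraries (log2 difference 6.12, SE 0.23). Its replicates were tight in both groups; it did not pass as deposited (limma with Benjamini-Hochberg adjustment, adjusted p = 0.123) and passed among genes with a mean of at least 5 FPKM (0.0383) and with quantile normalization (0.0236). Cgn, the cytoplasmic tight junction protein cingulin, had 84.1 and 68.8 FPKM in LdBC libraries, against 0.240 and 0.0433 in Basal libraries. Scnn1b, a subunit of the epithelial sodium channel, had 59.4 and 41.0 FPKM in LdBC libraries, against 0 and 0.122 in Basal libraries. Apart from Ceacam1, all of these were at or below 1.15 FPKM in both Basal libraries.

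Secreted and cell death genes were also among the wide gaps on that side. Lgals3 (galectin-3, a sugar-binding protein) had 1040 and 618 FPKM in LdBC libraries, against 15 and 9.47 in Basal libraries. Cck, the precursor of the peptide hormone cholecystokinin, had 209 and 236 FPKM in LdBC libraries, against 3.76 and 0 in Basal libraries, and was listed at 0 in the luminal library. Bcl2l15, a member of the Bcl2 family, followed the same order with 179 and 94.8 FPKM in LdBC libraries, against 0 and 0.506 in Basal libraries and 0 in the luminal library. For Cck and Bcl2l15, then, LdBC stood above both ordinary populations. Bik, which promotes apoptosis, had 68.8 and 57.7 FPKM in LdBC libraries, read 0 in both Basal libraries, and had 101 in the luminal library. Dkkl1, a secreted relative of the Dickkopf proteins, had 84.6 and 125 FPKM and the tyrosine phosphatase gene Ptpn18 had 38.5 and 65.7 FPKM in LdBC libraries. Both read 0 in both Basal libraries. In all, 68 genes read 0 in both Basal libraries with at least 5 FPKM in both LdBC libraries, and 59 of them had a gene name of their own.

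The wide gaps on the lower side included a hormone-like growth factor, matrix-building enzymes and a nucleotide enzyme. Fgf21 (chromosome 7, 45613890 to 45615490), an endocrine fibroblast growth factor, read 0 in both LdBC libraries and had 31.3 and 26.3 FPKM in Basal libraries. Has2 (chromosome 15, 56665627 to 56694546) and Has1, which make hyaluronan, had 0 and 0.0595 and 0 and 0.319 FPKM in LdBC libraries, against 19.3 and 35.0 and 24.9 and 19.2 in Basal libraries. Ctps (chromosome 4, 120539868 to 120570276), which makes cytidine triphosphate, had 0 and 0.289 FPKM in LdBC libraries, against 29.2 and 39.7 in Basal libraries. The luminal library had 20.5 FPKM of Ctps and 0 of Fgf21, so LdBC lay below both other populations in Ctps but not in Fgf21. Pdgfrl, which resembles a growth factor receptor, had 0 and 0.0906 FPKM in LdBC libraries, against 26.7 and 55.6 in Basal libraries. Them5, an acyl-CoA thioesterase, read 0 in both LdBC libraries, against 40.2 and 22.5 FPKM in Basal libraries. Bok, a member of the Bcl2 family, had 0 and 0.196 FPKM in LdBC libraries, against 37.8 and 20.6 in Basal libraries. With Bik and Bcl2l15 above and Bok below, members of that family stood on both sides. S100a4, a calcium-binding protein of motile cells, read 0 in both LdBC libraries and had 42.0 and 15.3 FPKM in Basal libraries. Rgs10, which turns off G proteins, and Npl, which breaks down sialic acid, likewise read 0 in both LdBC libraries, against 18.3 and 12.1 and 16.6 and 16.4 FPKM in Basal libraries. The peptide hormone gene Sct (secretin) read 0 in both LdBC libraries and had 10.1 and 14.9 FPKM in Basal libraries. In all, 29 genes read 0 in both LdBC libraries with at least 5 FPKM in both Basal libraries, 26 of them with a name of their own.

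**Figure D2:**
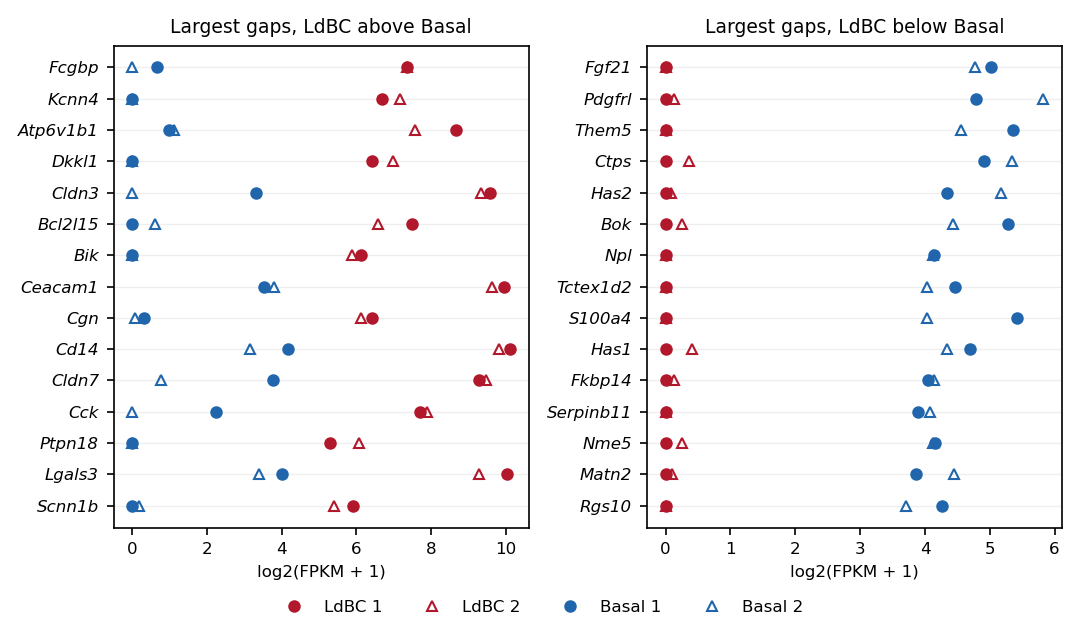
Log2(FPKM + 1) in each library for the 15 named genes with the widest gap in each direction, with LdBC in red and Basal in blue (filled circles replicate 1, open triangles replicate 2). On the left Basal values lie between 0 and 17.1 FPKM, and on the right no LdBC value exceeds 0.319 FPKM.

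Promoter sequences were read for the genes with a gap of at least 1. Grainyhead-like factors are regulators of epithelial junction and surface genes and bind the letters AACCNGTT. In windows of 250 bases before to 50 after each start site (RefSeq, GRCm38.p6), these letters were found on either strand in 31 of 990 windows (3.13%) of 762 higher genes. They were found in 10 of 739 windows (1.35%) of 556 lower genes and in 203 of 10680 windows (1.9%) of the 8338 tested genes that matched by symbol. None of those 203 windows had a match that overlapped another of the motifs searched. The windows below were picked for display and are not all that hold the letters. From the higher side 4 are shown (a junction protein, a cytokine antagonist, a mucin and a trafficking GTPase). From the lower side 1 is shown (a metallothionein). Aldoc and Timd2, with gaps of 3.90 and 3.86, also held the letters and are not shown, while Muc1 and Rab25 had gaps of 3.66 and 2.80. Grhl2, a Grainyhead-like gene described further below, was lower in both LdBC libraries. Capitals mark the match, read 5′ to 3′ on the strand of the gene.
Cgn promoter, chr3:94786433-94786732, minus strand: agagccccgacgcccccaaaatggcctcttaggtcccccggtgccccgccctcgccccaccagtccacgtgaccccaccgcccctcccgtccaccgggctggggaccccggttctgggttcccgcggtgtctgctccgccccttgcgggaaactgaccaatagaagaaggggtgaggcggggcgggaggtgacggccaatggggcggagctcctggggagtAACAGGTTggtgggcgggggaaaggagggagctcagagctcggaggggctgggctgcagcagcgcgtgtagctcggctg
Il1rn promoter, chr2:24336610-24336909, plus strand: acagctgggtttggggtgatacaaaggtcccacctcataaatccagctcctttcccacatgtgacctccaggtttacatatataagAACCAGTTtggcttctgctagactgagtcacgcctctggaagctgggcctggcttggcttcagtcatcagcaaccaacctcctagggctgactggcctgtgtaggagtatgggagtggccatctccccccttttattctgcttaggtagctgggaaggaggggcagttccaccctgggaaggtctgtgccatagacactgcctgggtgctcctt
Muc1 promoter, chr3:89228806-89229105, plus strand: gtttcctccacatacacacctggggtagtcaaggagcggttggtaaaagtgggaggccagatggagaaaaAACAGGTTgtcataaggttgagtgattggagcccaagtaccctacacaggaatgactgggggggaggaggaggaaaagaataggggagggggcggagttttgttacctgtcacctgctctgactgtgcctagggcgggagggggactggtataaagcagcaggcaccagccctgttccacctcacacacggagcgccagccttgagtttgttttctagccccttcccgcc
Rab25 promoter, chr3:88548230-88548529, minus strand: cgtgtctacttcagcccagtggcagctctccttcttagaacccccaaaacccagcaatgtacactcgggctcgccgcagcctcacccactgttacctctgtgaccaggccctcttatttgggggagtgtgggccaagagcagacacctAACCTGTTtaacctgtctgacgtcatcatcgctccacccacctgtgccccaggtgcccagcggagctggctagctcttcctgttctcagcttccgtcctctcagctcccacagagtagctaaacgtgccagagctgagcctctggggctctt
Mt2 promoter, chr8:94172368-94172667, plus strand: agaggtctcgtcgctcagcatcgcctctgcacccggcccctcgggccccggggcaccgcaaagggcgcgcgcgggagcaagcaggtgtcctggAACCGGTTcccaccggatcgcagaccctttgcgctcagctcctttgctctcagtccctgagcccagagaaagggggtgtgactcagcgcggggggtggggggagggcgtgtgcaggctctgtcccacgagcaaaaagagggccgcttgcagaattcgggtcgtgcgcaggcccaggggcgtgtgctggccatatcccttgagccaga

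In Cgn the match began 29 bases before the start site, in Rab25 102, in Mt2 157, in Il1rn 164 and in Muc1 180. The AP-1 letters TGANTCA were in 7.47% of windows of higher genes, 6.09% of windows of lower genes and 5.37% of all. The TEAD letters GGAATG were in 14.1%, 14.2% and 12.1%, and the CREB and ATF letters TGACGTCA in 3.64%, 1.89% and 3.19%. The ETS letters CCGGAAGT were in 7.68%, 3.79% and 8.31%. Median GC content was 59.3% on both sides and 61.0% over all windows. These shares carry no test, and a match is a string of letters, not a bound site.

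Several mucins were higher in both LdBC libraries, and the enzymes that build their sugar chains were found on both sides. Of 42 tested mucin and glycan genes, 15 were separated above and 6 below, where 30.5% and 18.6% of all tested genes were, with 10 above and 2 below by a gap of at least 1. The median difference was 0.65 (0.40 with median-of-ratios scaling). The membrane mucins Muc1, Muc4, Muc15 and Muc20 coat apical surfaces. Muc20 had 76.3 and 56.0 FPKM in LdBC libraries against 1.96 and 0 in Basal libraries, and Muc4 had 69.1 and 30.1 against 0.873 and 0. Muc1 had 49.9 and 128 FPKM in LdBC libraries against 3.04 and 0 in Basal libraries, and Muc15 had 92.8 and 101 against 7.84 and 1.97. All 4 mucins separated the groups, with no Basal library above 7.84 FPKM. Galnt3, which starts mucin-type sugar chains, had 79.5 and 90.7 FPKM in LdBC libraries, against 8.41 and 3.15 in Basal libraries. B4galt1, the galactosyltransferase that also serves lactose synthesis, had 55.8 and 82.4 FPKM in LdBC libraries, against 17.3 and 17.1 in Basal libraries. The sialyltransferase St3gal6 went the other way, with 0 and 0.173 FPKM in LdBC libraries, against 19 and 2.72 in Basal libraries.

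As deposited, mucosal defence genes had the highest median among the groups outside keratins, contractile genes, milk genes and cell type markers, at 0.93 (0.70 with median-of-ratios scaling). Of 36 tested members, 16 were separated above and 2 below, and 10 above and 1 below by a gap of at least 1. Cd14, a co-receptor for bacterial lipopolysaccharide, had 1106 and 896 FPKM in LdBC libraries, against 17.1 and 7.95 in Basal libraries. Ly96, which works in the same receptor complex, had 94.8 and 141 FPKM in LdBC libraries, against 14.7 and 28.6 in Basal libraries. Tlr2, which also senses bacterial products, had 13.5 and 13.0 FPKM in LdBC libraries, against 30.4 and 24.7 in Basal libraries. The receptor genes thus did not share a direction. Among secreted members, the haemoglobin-binding Hp had 13.7 and 104 FPKM in LdBC libraries and read 0 in both Basal libraries, and complement C3 had 132 and 124 FPKM against 51.7 and 38.6. Lypd3, a surface protein, had 602 and 569 FPKM in LdBC libraries, against 40.9 and 68.5 in Basal libraries. 1600029D21Rik, an older name of the surface protein gene Plet1, had 7982 and 4265 FPKM in LdBC libraries, against 242 and 88.0 in Basal libraries. Pigr, the carrier of secretory antibodies, was low but separated, with 3.60 and 3.17 FPKM in LdBC libraries against 0 and 0.0489 in Basal libraries. Slpi, an inhibitor of leukocyte proteases, was also lower, with 244 and 449 FPKM in LdBC libraries against 2430 and 1604 in Basal libraries.

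Ion transport differed member by member rather than as a group. Of 53 tested pumps and channels, 19 were separated above and 12 below, where 30.5% and 18.6% of all tested genes were. By a gap of at least 1, 12 were above and 4 below. The median was 0.16, near that of all genes, and -0.03 with median-of-ratios scaling. The median was 0.00 when LdBC replicate 1 was left out, 0.01 when LdBC replicate 2 was and 0.28 when Basal replicate 1 was. Beside Kcnn4 and Scnn1b, the sodium channel subunit Scnn1g had 17.8 and 12.4 FPKM in LdBC libraries, against 2.62 and 0 in Basal libraries. Car2, a carbonic anhydrase, had 116 and 172 FPKM in LdBC libraries, against 2.29 and 0.0567 in Basal libraries. The sodium pump subunit Atp1b1 had 118 and 89.6 FPKM in LdBC libraries, against 2.60 and 7.74 in Basal libraries. Fxyd2, which modulates that pump, had 17.3 and 30.1 FPKM in LdBC libraries and read 0 in both Basal libraries, whereas its relative Fxyd5 had 0 and 0.149 against 15.9 and 9.45. The water channel gene Aqp5 had 7.74 and 38.2 FPKM in LdBC libraries and read 0 in both Basal libraries, and Aqp9 had 0 and 1.63 against 4.65 and 6.45. Kcnmb1, the potassium channel subunit of smooth muscle, had 0 and 0.0603 FPKM in LdBC libraries, against 4.85 and 10.7 in Basal libraries. Pairs within the Fxyd and water channel families thus stood on opposite sides.

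Solute carriers were also found on both sides. Of 172 tested carriers, 40 were separated above and 30 below, where 30.5% and 18.6% of all tested genes were. By a gap of at least 1, 22 were above and 13 below, with a median over the list of 0.30 (0.00 with median-of-ratios scaling). That median was 0.64 when LdBC replicate 1 was left out and -0.07 when LdBC replicate 2 was. Slc28a3, a nucleoside carrier, had 79.1 and 104 FPKM in LdBC libraries, against 1.80 and 0 in Basal libraries. Slc13a2, a carrier of dicarboxylates, had 21.3 and 18.4 FPKM in LdBC libraries and read 0 in both Basal libraries. Slc5a1, the sodium-glucose transporter of apical membranes, had 21 and 10.6 FPKM in LdBC libraries against 1.99 and 0 in Basal libraries, and Slc1a1, a glutamate carrier, had 19.2 and 14.4 against 0 and 1.27. Each of these 4 carriers was at or below 1.99 FPKM in Basal libraries. Slc2a4, the insulin-regulated glucose transporter GLUT4, had 0 and 0.0459 FPKM in LdBC libraries, against 11.7 and 18.2 in Basal libraries. The amino acid exchangers Slc7a5 and Slc1a5 had 2.46 and 5.07 and 3.61 and 6.74 FPKM in LdBC libraries, against 20.0 and 19.8 and 30.3 and 25.1 in Basal libraries. Slc39a10, a zinc importer, had 0.0255 and 0.0253 FPKM in LdBC libraries, against 4.55 and 8.54 in Basal libraries, while the zinc importer Slc39a4 had 27.6 and 36.2 against 8.97 and 0. Glucose, amino acid and zinc carriers therefore had members on both sides.

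Microvillus and cortical actin genes were separated above in 16 of 32 tested members and below in 6, where 30.5% and 18.6% of all tested genes were. By a gap of at least 1, 6 were above and 2 below, with a median over the list of 0.62 (0.31 with median-of-ratios scaling). Slc9a3r1 (chromosome 11, 115163341 to 115181178), the scaffold that ties apical membrane proteins to ezrin, had 81.6 and 78.0 FPKM in LdBC libraries, against 1.56 and 2.09 in Basal libraries. Eps8l2, an actin regulator, had 126 and 44.1 FPKM in LdBC libraries, against 8.61 and 8.11 in Basal libraries. Lcp1, an actin bundler, had 8.05 and 31.6 FPKM in LdBC libraries, against 0.165 and 0 in Basal libraries. Fscn1, the bundler of filopodia, had 0.345 and 0.244 FPKM in LdBC libraries against 5.09 and 4.72 in Basal libraries, and the actin-severing Gsn had 62.2 and 94.4 against 196 and 223. Bundling proteins of different protrusions were thus found on opposite sides.

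**Figure D3:**
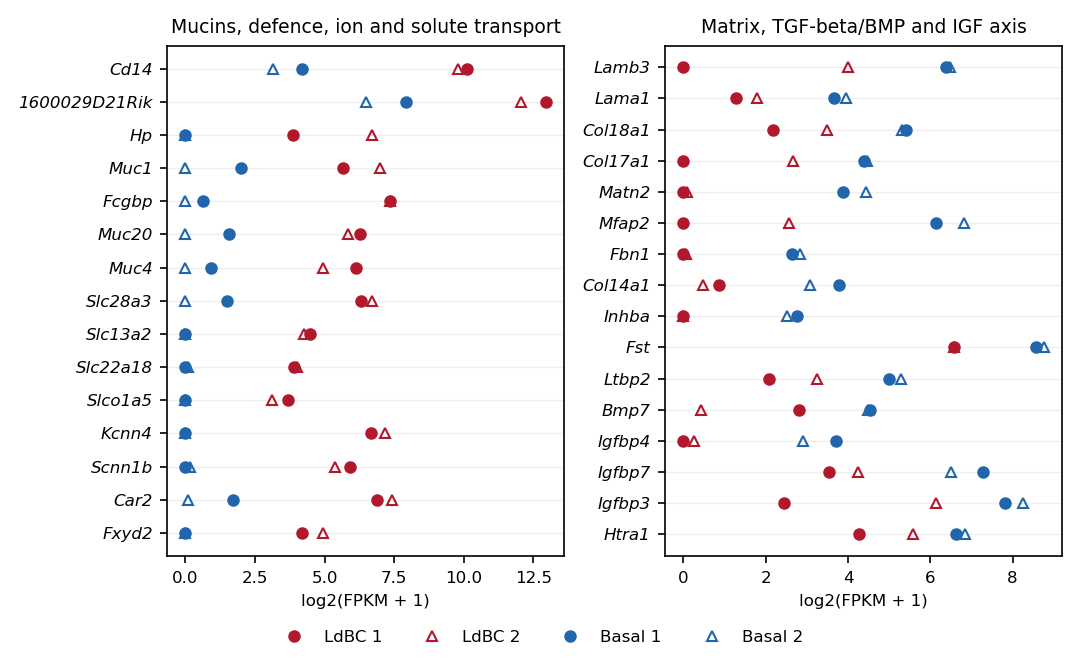
Log2(FPKM + 1) per library for the members with the widest gaps among mucins, mucosal defence, ion channels and solute carriers (left) and among matrix, TGF-beta/BMP and insulin-like growth factor genes (right), with LdBC in red and Basal in blue (filled circles replicate 1, open triangles replicate 2). Genes were picked for a gap of at least 1, so the 2 groups cannot overlap in any gene shown. The LdBC replicates lie apart in Lamb3, Mfap2 and Igfbp3 (4.45 and 69.7 FPKM).

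Genes of the interstitial matrix list were lower in LdBC or not separated, which depends on the make-up of that list. The matricellular gene Cyr61, counted with the Hippo list, was higher, with 2171 and 1598 FPKM in LdBC libraries against 272 and 192 in Basal libraries. Spp1 (osteopontin), counted with milk genes, had 81.0 and 182 FPKM in LdBC libraries and read 0 in both Basal libraries. None of 32 tested interstitial matrix and matricellular genes was separated above and 23 were below, 13 of them by a gap of at least 1. The median was -1.69, and it was -2.07 with median-of-ratios scaling, -1.42 without LdBC replicate 1 and -1.95 without LdBC replicate 2. Mfap2, a microfibril protein, had 0 and 4.96 FPKM in LdBC libraries, against 69.9 and 112 in Basal libraries. Matn2, a filament-forming matrilin, had 0 and 0.0725 FPKM in LdBC libraries, against 13.6 and 20.8 in Basal libraries. Mgp, an inhibitor of calcification, had 130 and 261 FPKM in LdBC libraries, against 1033 and 895 in Basal libraries. The fibrillin genes Fbn1 and Fbn2 had 0 and 0.0495 and 0 and 0 FPKM in LdBC libraries, against 5.21 and 6.12 and 3.10 and 2.54 in Basal libraries. Sparc, which binds collagen and calcium, was abundant in every library, with 120 and 351 FPKM in LdBC libraries against 1208 and 1127 in Basal libraries. Periostin (Postn) had 0 and 74.7 FPKM in LdBC libraries, against 210 and 199 in Basal libraries. The 7 fibroblast markers in the table summed to 29.5 and 67.2 FPKM in LdBC libraries against 295 and 276 in Basal libraries, with the same direction as the matrix list. Most of the Basal sums was Dcn (275 and 268 FPKM). Dcn also had 305 FPKM in the luminal library, where the other fibroblast markers in the table read 0. The part of fibroblast RNA in the lower matrix values was not tested.

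Basement membrane genes followed. Of 24 tested members 1 was separated above and 17 below, 9 of these 17 by a gap of at least 1, with a median of -1.20 (-1.55 with median-of-ratios scaling). The type IV collagens Col4a1 and Col4a2, which form the sheet itself, had 3.77 and 14.3 and 12.3 and 14.8 FPKM in LdBC libraries, against 47.9 and 52.7 and 36.8 and 38.8 in Basal libraries. Dag1 (dystroglycan), a laminin receptor, had 10.9 and 10.7 FPKM in LdBC libraries, against 40.1 and 37.1 in Basal libraries. Lama1, a laminin chain, had 1.42 and 2.45 FPKM in LdBC libraries, against 11.6 and 14.6 in Basal libraries. The hemidesmosome linker Plec was the single member above, with 22.3 and 20.6 FPKM in LdBC libraries against 10.4 and 7.66 in Basal libraries. Integrins, the receptors for these proteins, were on both sides: of 19 tested, 3 were above and 7 below, with a median of -0.05 (-0.41 with median-of-ratios scaling). It was 0.07 when LdBC replicate 1 was left out, -0.61 when LdBC replicate 2 was, -0.35 when Basal replicate 1 was and -0.08 when Basal replicate 2 was. Itgb6 and its partner Itgav, which together bind and activate latent TGF-beta, had 15.1 and 18.4 and 156 and 111 FPKM in LdBC libraries, against 1.32 and 1.09 and 50.1 and 50.4 in Basal libraries. The laminin-binding Itga3 had 7.23 and 6.0 FPKM in LdBC libraries against 24.1 and 27.9 in Basal libraries, and the fibronectin receptor Itga5 had 0 and 1.10 against 9.14 and 8.99. Itga3 and Itga5 were therefore lower, and Itgav and Itgb6 higher, in both LdBC libraries.

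Extracellular proteases and their inhibitors were found on both sides. Of 48 tested proteases and inhibitors, 13 were separated above and 23 below, 9 above and 18 below by a gap of at least 1, with a median of -0.45 (-0.74 with median-of-ratios scaling). The higher members included the membrane-anchored serine proteases of epithelia and their inhibitor. St14 (matriptase) had 36.5 and 47.0 FPKM in LdBC libraries against 3.87 and 5.93 in Basal libraries, and Prss8 (prostasin) had 70.1 and 43.8 against 2.31 and 8.19. Spint1, which inhibits matriptase, had 259 and 210 FPKM in LdBC libraries, against 4.92 and 12.7 in Basal libraries. All 3 genes of that system separated the groups by a gap of at least 1. The lower members included plasminogen activation and the ADAMTS enzymes that cut proteoglycans. Plat, the tissue plasminogen activator, had 18.3 and 17.5 FPKM in LdBC libraries, against 97.8 and 133 in Basal libraries, whereas Plaur, the receptor of the urokinase activator, had 1206 and 582 against 285 and 285. Adamts1 and Adamts9 had 3.45 and 12.4 and 0 and 0.618 FPKM in LdBC libraries, against 53.2 and 77.7 and 6.51 and 6.72 in Basal libraries. Serping1, the inhibitor of complement C1, had 0 and 0.521 FPKM in LdBC libraries, against 57.1 and 15.1 in Basal libraries.

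Growth factor genes are described by ligand and receptor. In the EGF family 12 members were tested, with 5 separated above and 2 below and a median of 0.38 (0.14 with median-of-ratios scaling). The median was 0.77 when LdBC replicate 1 was left out and -0.13 when LdBC replicate 2 was, and also -0.13 with no filter on low values. Among receptors, Erbb3 (chromosome 10, 128567523 to 128589635) had 27.8 and 22.4 FPKM in LdBC libraries, against 0.974 and 0.138 in Basal libraries. Its signalling partner Erbb2 had 10.8 and 18.0 FPKM in LdBC libraries, against 2.16 and 2.41 in Basal libraries, while Egfr had 4.43 and 17.3 against 10.6 and 10.2 and overlapped. Among ligands, Areg, which binds Egfr, had 25.9 and 211 FPKM in LdBC libraries, against 0.199 and 2.55 in Basal libraries. Nrg1 (chromosome 8, 31807452 to 32891609), the ligand of Erbb3, had 9.04 and 14.1 FPKM in LdBC libraries, against 57.4 and 54.8 in Basal libraries. Erbb3 and its ligand thus stood on opposite sides of the comparison, and the luminal library had 5.17 and 0 FPKM of them. In the FGF group 2 of 17 tested members were above and 9 below, with a median of -1.23 (-1.51 with median-of-ratios scaling, -0.69 without LdBC replicate 1). Beside Fgf21, the receptor Fgfr2 had 3.79 and 6.46 FPKM in LdBC libraries against 13.5 and 14.2 in Basal libraries, and the target Etv4 read 0 in both LdBC libraries against 5.74 and 6.01.

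TGF-beta and BMP genes were more often lower, with 8 of 37 tested members above and 19 below, 1 above and 8 below by a gap of at least 1, and a median of -0.29 (-0.63 with median-of-ratios scaling, -0.17 without LdBC replicate 2 and -0.18 without Basal replicate 1). Among ligands, Tgfb3 had 29.8 and 23.7 FPKM in LdBC libraries, against 6.70 and 4.71 in Basal libraries. Bmp7 had 5.99 and 0.341 FPKM in LdBC libraries against 22.3 and 21.6 in Basal libraries, and the activin subunit gene Inhba read 0 in both LdBC libraries against 5.79 and 4.76. Tgfb3 was the only member above by a gap of at least 1. The activin antagonist Fst had 93.9 and 93.8 FPKM in LdBC libraries, against 376 and 433 in Basal libraries. Among receptors, Acvr1 and Acvr1b had 9.63 and 10.4 and 0.263 and 0.493 FPKM in LdBC libraries, against 25.5 and 32.7 and 3.25 and 5.30 in Basal libraries. Ltbp2, of the family that stores latent TGF-beta in the matrix, had 3.24 and 8.45 FPKM in LdBC libraries, against 30.9 and 37.9 in Basal libraries.

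Of 16 tested members of the insulin-like growth factor axis 2 were above and 8 below, 0 and 4 by a gap of at least 1, with a median of -0.39 (-0.62 with median-of-ratios scaling). That median was -0.84 when LdBC replicate 1 was left out, -0.65 when Basal replicate 1 was and -0.14 when Basal replicate 2 was. Binding proteins hold the ligands outside the cell. Igfbp3 had 4.45 and 69.7 FPKM in LdBC libraries against 226 and 304 in Basal libraries, and Igfbp7 had 10.7 and 17.9 against 154 and 90.3. Igfbp4 had 0 and 0.194 FPKM in LdBC libraries, against 12.1 and 6.5 in Basal libraries. The signalling receptor Igf1r had 1.45 and 1.62 FPKM in LdBC libraries against 4.73 and 3.70 in Basal libraries, and Igf2r, which removes the ligand, had 12.8 and 11.4 against 6.07 and 5.28. These 3 binding proteins and Igf1r were thus lower and Igf2r higher in both LdBC libraries.

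Axon guidance molecules, which also position mammary cells, were above in 5 and below in 15 of 34 tested members, 0 and 8 by a gap of at least 1. Their median was -0.49 as deposited and -0.66 with median-of-ratios scaling, but 0.58, the opposite sign, among members with a mean of at least 5 FPKM. It was -0.21 when LdBC replicate 1 was left out and -0.10 when Basal replicate 1 was. Slit3 and the Slit receptors Robo1 and Robo2 had 0 and 0.0411, 0.0284 and 0.0816, and 0 and 0 FPKM in LdBC libraries, against 3.34 and 4.4, 2.23 and 2.93, and 2.25 and 5.63 in Basal libraries. The receptor Epha2 was above, with 45.2 and 38.2 FPKM in LdBC libraries against 17.5 and 18.8 in Basal libraries. Chemokines, cytokines and their receptors were above in 9 and below in 17 of 58 tested members, 4 and 7 by a gap of at least 1, with a median of -0.59 (-0.91 with median-of-ratios scaling, -0.37 without Basal replicate 1). Il1rn, which blocks the interleukin-1 receptor, had 38.4 and 31.2 FPKM in LdBC libraries and read 0 in both Basal libraries. Csf3, a granulocyte growth factor, had 973 and 240 FPKM in LdBC libraries against 48.6 and 12.6 in Basal libraries, and Lif had 55.2 and 14.0 against 2.39 and 5.13. Cxcr7, now Ackr3, a receptor that removes the chemokine Cxcl12, had 9.40 and 14.8 FPKM in LdBC libraries, against 67.8 and 79.7 in Basal libraries. Il17b had 0 and 44.5 FPKM in LdBC libraries, against 296 and 148 in Basal libraries. Of 34 tested genes in the list of G protein and neurohormone receptors, 5 were above and 5 below by a gap of at least 1. That list also holds genes that are not receptors, such as Edn1 and Ptges. The G protein-coupled receptors Lgr4 and Lgr5, which bind R-spondins, were lower. They had 12.8 and 10.5 and 0 and 0.157 FPKM in LdBC libraries, against 44.1 and 43.9 and 7.62 and 20.2 in Basal libraries. Gprc5a was higher, with 48.0 and 34.8 FPKM in LdBC libraries against 1.52 and 8.07 in Basal libraries.

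**Figure D4:**
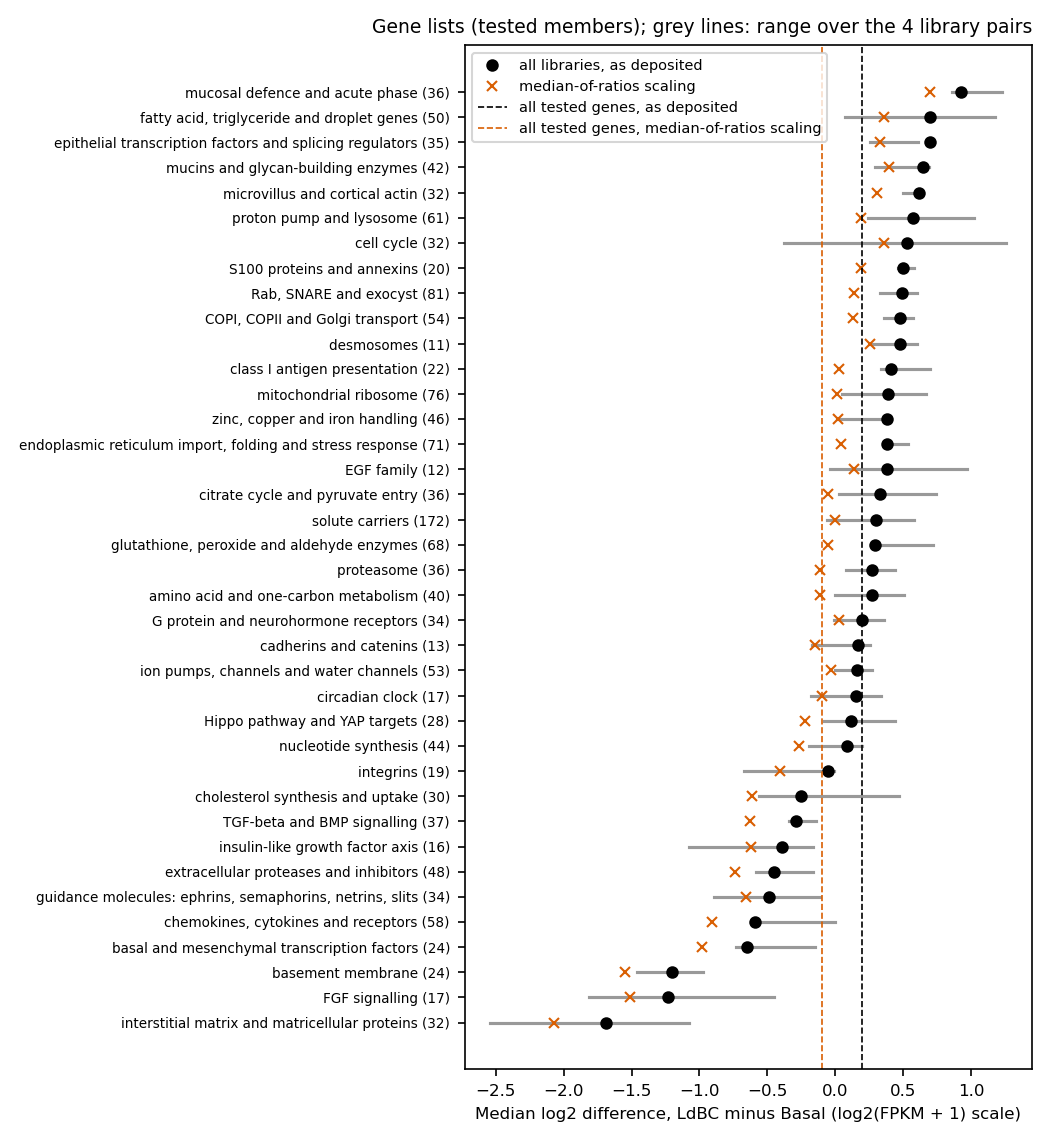
Median log2 difference (LdBC minus Basal, log2(FPKM + 1) scale) of each gene group, with the number of tested members in brackets. Black points are the deposited values, orange crosses median-of-ratios scaling, grey lines the range of the median over the 4 single pairs of an LdBC and a Basal library, and dashed lines the medians of all tested genes (0.20 and -0.10); mucosal defence lies at the top with 0.93 and interstitial matrix at the bottom with -1.69.

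Of 50 tested fatty acid, triglyceride and lipid droplet genes, 22 were above and 7 below, where 30.5% and 18.6% of all tested genes were, 13 and 3 by a gap of at least 1, with a median of 0.70 (0.36 with median-of-ratios scaling). The median was 0.99 when LdBC replicate 1 was left out and 0.40 when LdBC replicate 2 was. Acly, which makes the acetyl-CoA for fatty acid synthesis, had 37.7 and 34.4 FPKM in LdBC libraries, against 2.96 and 3.47 in Basal libraries. The desaturases Fads2 and Scd1 had 51.8 and 41.4 and 41.4 and 37.0 FPKM in LdBC libraries, against 2.55 and 2.70 and 3.22 and 2.36 in Basal libraries. Plin2, which coats lipid droplets, had 526 and 440 FPKM in LdBC libraries, against 65.1 and 61.3 in Basal libraries. Replicates were close in both groups for these 4 genes. Cidea, a lipid droplet protein, had 22.9 and 54.7 FPKM in LdBC libraries against 3.91 and 0.284 in Basal libraries, and the lipase gene Lpl had 11.1 and 4.94 against 1.68 and 0.0232. Of 30 tested cholesterol genes, 7 were above and 6 below, where 30.5% and 18.6% of all tested genes were. The median over the list was -0.25 (-0.61 with median-of-ratios scaling). That median was 0.55 when LdBC replicate 1 was left out and -0.76 when LdBC replicate 2 was, and 0.02 when Basal replicate 2 was. Apoe, the lipid carrier that was the most abundant transcript of both Basal libraries, had 859 and 1916 FPKM in LdBC libraries, against 7198 and 6393 in Basal libraries.

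Lysosome and proton pump genes were above in 29 and below in 8 of 61 tested members, 12 and 1 by a gap of at least 1, with a median of 0.57 (0.19 with median-of-ratios scaling). That median was 0.89 when LdBC replicate 1 was left out and 0.19 when LdBC replicate 2 was. Besides Atp6v1b1, the general pump subunits Atp6v1b2 and Atp6v1h had 60.5 and 52.7 and 85.3 and 67.6 FPKM in LdBC libraries, against 24.4 and 18.4 and 33.5 and 28.9 in Basal libraries. Lipa, the lysosomal lipase, had 37.0 and 54.1 FPKM in LdBC libraries, against 1.03 and 4.19 in Basal libraries. Ctsh, a cathepsin, had 192 and 193 FPKM in LdBC libraries, against 36.0 and 22.7 in Basal libraries. The acid ceramidase Asah1 was the one member below by a gap of at least 1, with 9.59 and 17.0 FPKM in LdBC libraries against 37.0 and 50.2 in Basal libraries.

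The secretory route showed small shifts above the median of all genes, as deposited and with median-of-ratios scaling. That median was 0.20 as deposited and -0.10 with this scaling. Of the 10626 tested genes, 2250 were above and 2897 below with this scaling. Of 71 tested genes of endoplasmic reticulum import, folding and stress, 36 were above and 2 below as deposited, but 15 and 9 with median-of-ratios scaling, with medians of 0.38 and 0.04. Of 54 tested COPI, COPII and Golgi genes, 26 were above and 2 below as deposited and 14 and 6 with that scaling, with medians of 0.48 and 0.13. A few members stood out from these groups. Xbp1, the transcription factor of secretory capacity, had 446 and 391 FPKM in LdBC libraries, against 169 and 178 in Basal libraries. Sec23b, a COPII coat protein, had 50.2 and 37.2 FPKM in LdBC libraries, against 8.99 and 15.1 in Basal libraries. Rab and SNARE genes, of which 81 were tested, were above in 31 and below in 10, with a median of 0.49 (0.14 with median-of-ratios scaling, 0.31 without LdBC replicate 2). Among the members with wide gaps were 2 GTPases of apical recycling. Rab17 had 52.4 and 59.7 FPKM in LdBC libraries against 0 and 2.89 in Basal libraries, and Rab25 had 119 and 105 against 14.2 and 1.28. The general trafficking GTPase Rab11a had 131 and 135 FPKM in LdBC libraries, against 68.4 and 61.3 in Basal libraries.

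Redox enzymes were found on both sides. Of 68 tested glutathione, peroxide and aldehyde genes, 29 were above and 14 below, 12 and 5 by a gap of at least 1. The median was 0.29, and -0.05 with median-of-ratios scaling. It was 0.50 when LdBC replicate 1 was left out, 0.58 when LdBC replicate 2 was and 0.50 when Basal replicate 1 was. The pentose phosphate pathway supplies NADPH. Taldo1 and Pgd of that pathway had 270 and 221 and 124 and 98.5 FPKM in LdBC libraries, against 48.3 and 38.5 and 37.6 and 25.2 in Basal libraries. Nqo1, a quinone reductase, had 66.7 and 46.0 FPKM in LdBC libraries, against 8.18 and 5.68 in Basal libraries. Gpx1 and Gpx4, the general glutathione peroxidases, had 392 and 440 and 1216 and 1131 FPKM in LdBC libraries, against 144 and 152 and 450 and 433 in Basal libraries. The peroxidases Gpx2 and Gpx7 were lower, with Gpx2 at 10.5 and 0.420 FPKM in LdBC libraries against 125 and 33.6 in Basal libraries and Gpx7 at 0 and 0.239 against 12.6 and 5.93. Glutathione transferases, whose copies resemble each other, were on both sides: Gstt3 had 23.8 and 36.1 FPKM in LdBC libraries against 7.71 and 2.64 in Basal libraries while Gstm1 had 31.6 and 76.5 against 226 and 191. The metallothioneins Mt1 and Mt2, which bind zinc and copper, had 611 and 1362 and 229 and 610 FPKM in LdBC libraries, against 4964 and 4031 and 2481 and 2026 in Basal libraries. The iron carrier Trf (transferrin) was on the other side, at 4412 and 4821 FPKM in LdBC libraries against 915 and 1251 in Basal libraries. Of the 46 tested metal-handling genes 13 were above and 10 below, with a median of 0.38 (0.02 with median-of-ratios scaling, 0.16 without LdBC replicate 2 and 0.18 without Basal replicate 1).

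**Figure D5:**
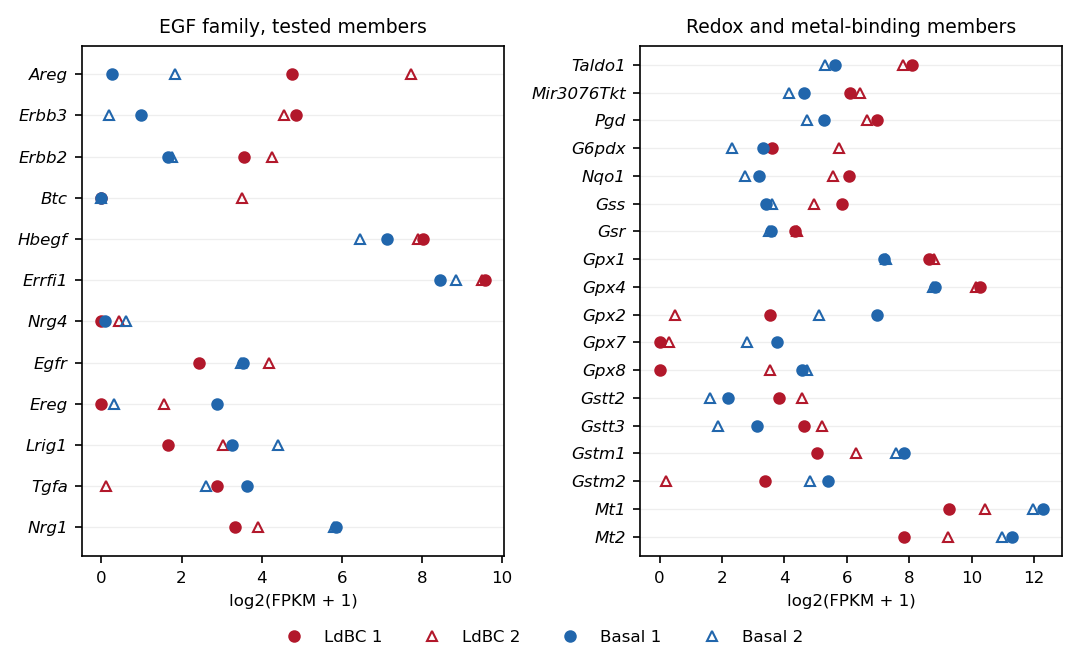
Log2(FPKM + 1) per library for all 12 tested EGF family members, ordered by their difference, and for selected redox and metal-binding genes, with LdBC in red and Basal in blue (filled circles replicate 1, open triangles replicate 2). Erbb3 and Erbb2 lie to the right in both LdBC libraries and Nrg1 to the left, and Gpx1 and Gpx4 lie opposite to Gpx2, Gpx7 and the metallothioneins. Mir3076Tkt is the joined name of the transketolase gene and a microRNA gene.

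Of 44 tested nucleotide genes, 10 were above and 10 below, where 30.5% and 18.6% of all tested genes were. The median over the list was 0.09 (-0.27 with median-of-ratios scaling). It was 0.00 when LdBC replicate 1 was left out, 0.03 when LdBC replicate 2 was and -0.10 when Basal replicate 2 was. Where Ctps had at most 0.289 FPKM in LdBC libraries, the other cytidine triphosphate synthase, Ctps2, had 15 and 15.8 FPKM in LdBC libraries against 5.05 and 3.59 in Basal libraries. Ppat, the first enzyme of purine synthesis, had 0.0638 and 0.126 FPKM in LdBC libraries, against 6.83 and 12.9 in Basal libraries, and Atic, which acts at its end, had 0 and 0.350 against 10.3 and 3.90. Cmpk1, a nucleotide kinase, had 97.9 and 106 FPKM in LdBC libraries, against 26.0 and 18.0 in Basal libraries. Cell cycle genes were above in 9 and below in 4 of 32 tested members, near the shares of 30.5% and 18.6% over all tested genes. Their median of 0.53 became 0.00 when LdBC replicate 1 was left out, 1.23 when LdBC replicate 2 was and 0.32 when Basal replicate 2 was. Cdkn2b, an inhibitor of the cycle, had 12.5 and 10.9 FPKM in LdBC libraries, against 1.82 and 0 in Basal libraries. Cyclin D2 (Ccnd2) had 0.0436 and 2.40 FPKM in LdBC libraries against 21.4 and 30.9 in Basal libraries, and the inhibitor Cdkn1c read 0 in both LdBC libraries against 5.37 and 2.48.

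Transcription factors of both layers of the gland had members on both sides. Of 35 tested epithelial factors and splicing regulators, 16 were above and 8 below, 8 and 2 by a gap of at least 1, with a median of 0.70 (0.33 with median-of-ratios scaling, 0.36 without LdBC replicate 2). Ehf, an epithelial ETS factor, had 48.8 and 49.2 FPKM in LdBC libraries, against 2.43 and 0 in Basal libraries. Its relative Elf3 had 94.9 and 164 FPKM in LdBC libraries against 37.2 and 33.3 in Basal libraries, and the splicing regulator Esrp2 had 4.72 and 22.1 against 0.317 and 0.217. Grhl2, the Grainyhead-like factor of epithelial junctions, stood on the other side, with 1.42 and 2.55 FPKM in LdBC libraries against 5.51 and 5.28 in Basal libraries. Cebpa read 0 in both LdBC libraries and had 4.34 and 6.75 FPKM in Basal libraries. Of 24 tested basal and mesenchymal factors, 6 were above and 10 below, 2 and 4 by a gap of at least 1, with a median of -0.65 (-0.98 with median-of-ratios scaling, -0.19 without LdBC replicate 1). The homeobox gene Irx4 read 0 in both LdBC libraries against 12.2 and 7.64 FPKM in Basal libraries, while Barx2, another homeobox gene, had 4.36 and 10.5 against 0 and 0.113.

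The Hippo pathway restrains YAP, a co-activator with well known target genes. Among 28 tested pathway members and targets, 4 were above and 0 below by a gap of at least 1. Over the whole list 7 were above and 4 below, with a median of 0.12 (-0.22 with median-of-ratios scaling). That median was -0.05 when LdBC replicate 1 was left out, 0.46 when LdBC replicate 2 was and -0.02 when Basal replicate 2 was. Cyr61, a matricellular target, had 2171 and 1598 FPKM in LdBC libraries, against 272 and 192 in Basal libraries. F3 (tissue factor) had 1076 and 522 FPKM in LdBC libraries against 92.5 and 110 in Basal libraries, and Amotl2 had 18.7 and 18.6 against 3.76 and 3.23. These 3 target genes are named because of their wide gaps, while the list as a whole lay near the median of all genes.

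Members of the same adhesion family were found on both sides. E-cadherin (Cdh1) had 113 and 108 FPKM in LdBC libraries, against 24.8 and 34.9 in Basal libraries, and P-cadherin (Cdh3), the cadherin of basal cells, had 4.33 and 7.43 against 44.0 and 42.6. Of the desmosomal plakophilins, Pkp2 had 46.2 and 12.0 FPKM in LdBC libraries and read 0 in both Basal libraries, whereas Pkp1 had 0.0673 and 9.83 against 34.3 and 27.2. Of 11 tested desmosome genes 5 were above and 4 below (median 0.48, 0.26 with median-of-ratios scaling and -0.21 among members with a mean of at least 5 FPKM). Of 13 cadherins and catenins 5 were above and 3 below (median 0.17, -0.15 with that scaling). The cadherin median was 0.09 when LdBC replicate 1 was left out, -0.38 when LdBC replicate 2 was, 0.37 when Basal replicate 1 was and -0.10 when Basal replicate 2 was. Among annexins and S100 proteins, of which 20 were tested, 9 were above and 3 below, with a median of 0.50 (0.19 with that scaling). Anxa1 had 1976 and 2706 FPKM in LdBC libraries against 380 and 202 in Basal libraries, and Anxa2 had 1951 and 1502 against 644 and 693.

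Several further groups, among them basic metabolism, protein turnover, antigen presentation, receptor and clock lists, lay near the median of all genes. Mitochondrial ribosome genes (76 tested) had a median of 0.39 as deposited and 0.01 with median-of-ratios scaling, citrate cycle genes (36) 0.33 and -0.05, proteasome genes (36) 0.27 and -0.11, and amino acid genes (40) 0.27 and -0.11. Class I antigen presentation (22) had 0.41 and 0.03, G protein and neurohormone receptors (34) 0.20 and 0.03, and clock genes (17) 0.15 and -0.10. When LdBC replicate 1 was left out the median was 0.66 for citrate cycle genes and 0.57 for amino acid genes. When LdBC replicate 2 was left out it was 0.73 for class I genes, 0.10 for receptors and 0.00 for both amino acid and clock genes. Without Basal replicate 1 it was 0.44 for the proteasome, 0.13 for receptors and 0.07 for the clock, and without Basal replicate 2 it was 0.11 for the proteasome and 0.04 for receptors. Even so, single members differed between tight replicates. Citrate synthase (Cs) had 76.5 and 87.4 FPKM in LdBC libraries, against 29.5 and 28.5 in Basal libraries, and the proteasome subunit Psmd8 had 281 and 216 against 90.2 and 87.9. Only 2 Hox genes were tested, and neither was separated.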

How the data were processed

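Per the labels' protocols, about 50 sorted cells per library were lysed, and their RNA was reverse-transcribed and amplified with a modified Smart-seq2 protocol. Per the submitters' processing notes, the read processing used mm10 with the tools TopHat2 2.0.4, Cuffdiff 2.0.2 and Cufflinks 2.0.2. The table deposited by the authors gives each gene's log2(FPKM + 1) in every library, FPKM being fragments scaled by transcript length and by library size. The base of the log was read from the values. Counts were not analysed here, so the depth behind a value is unknown and no count model was used. Of 12311 rows, 18 whose names had become dates were dropped, and 12293 remained. Of these, 10953 carry a current RefSeq symbol, 1093 an older one, and 174 join several genes, such as Cd74Mir5107 for Cd74. No source used here states the strand, so overlapping and antisense genes cannot be separated, and values of near-identical copies (Gstm, Mt, Ceacam and class I genes) are uncertain.

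Limma 3.58.1 (R 4.3.3) with an intensity trend was fitted to the log2(FPKM + 1) values (pseudocount 1) of all 5 libraries, with 1 mean per group, over 10626 genes with a mean of at least 1 FPKM. Residual degrees of freedom were 2, to which the prior contributed a further 1.65. P-values are two-sided with Benjamini-Hochberg adjustment over all genes, with a call under 0.05. The fit was run on simulated data to check the sign of seeded differences. The simulated spread between libraries was smaller than that seen here, so the run does not show how many genes could pass. Separation and gaps were counted without a test, and gene lists were described by counts and medians. The comparison, the 51 lists and the rule for named genes were chosen with earlier results of these data known. The rule takes, per direction, the 15 widest gaps outside keratins, contractile and milk genes, up to 4 list members with a gap of at least 1, the 8 highest genes listed at 0 in the other group, and the cell type markers. List members outside this rule that are named in the text were chosen after their values were seen. The alternatives were pseudocounts of 0.1 and 5, other filters, median-of-ratios scaling, quantile normalization, fits without trend, without the luminal library or with a replicate block, and leaving out each replicate. Promoter windows and gene positions are those of RefSeq for GRCm38.p6, the assembly of mm10. Figures were drawn with matplotlib.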

Additional observations from a re-analysis of the deposited data

How the results depend on the processing

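With each replicate left out in turn, 0 genes passed in limma with Benjamini-Hochberg adjustment (from 0 to 0), between 6699 and 8735 genes were separated, and between 2503 and 4042 had a gap of at least 1. With 1 library in a group, fewer values have to be cleared, and the lone library is assumed to vary like the others. The count of genes that passed was 0 with a pseudocount of 0.1 (2029 at an unadjusted p under 0.05), with median-of-ratios scaling (1927), without the luminal library (2124) and without trend (1987). It was 2 among genes with a mean of at least 5 FPKM (Ceacam1 and Krt18) and 4 with quantile normalization (Ceacam1, Krt18 and Krt8 higher, Tagln lower). It stayed at 1 with a pseudocount of 5 and with no filter. A gap of at least 1 was present in 843 genes with a pseudocount of 5 and in 1100 with a mean of at least 5 FPKM, where 7152 genes were tested. Krt18 did not pass without either LdBC or either Basal replicate (adjusted p between 0.0885 and 0.157). With the replicate number as a block, 0 genes passed in limma and Krt18 had a Benjamini-Hochberg adjusted p of 0.146. The deviations of same-numbered libraries from their group means correlated at 0.012 over 10626 genes. With 2 libraries per group and 1 replicate difference in each, that value cannot show whether same-numbered libraries were paired. Medians of 51 gene lists moved by more than their SD over the 4 pairs of libraries in 30 lists with median-of-ratios scaling, 21 with quantile normalization, 20 with a pseudocount of 5, 14 when LdBC replicate 1 was left out and 22 when LdBC replicate 2 was. The depth behind a value is unknown, so a gene listed at 0 sets no upper limit.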
